A study of Mus musculus with 19 samples.

Results

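Chemokine receptors are cell-surface receptors that steer leukocytes along gradients of small secreted proteins, the chemokines, and so decide where a dendritic cell settles and where it goes next. The genes described here are 9 such receptors, Ccr2, Ccr6, Ccr7, Ccr9, Cxcr3, Cxcr4, Cxcr5, Cx3cr1 and Ackr3, in type 1 conventional dendritic cells (DC1), the subset that presents antigen to CD8 T cells. Each was taken as the brightest probe set annotated to that symbol alone, and each had exactly 1 such probe set on either array type. They are 9 of 19938 named genes on the lymph node arrays and 9 of 22180 on the spleen arrays.

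The samples were sorted DC1 of C57Bl/6j mice, measured on 2 types of Affymetrix array that formed separate tables. From skin-draining lymph nodes (SDLN: inguinal, cervical and brachial) came 4 groups: migratory Batf3-/- Irf8VENUS+ DC1 (3 arrays), migratory WT Irf8VENUS+ DC1 (2 arrays), resident Batf3-/- Irf8VENUS+ DC1 (3 arrays) and resident WT Irf8VENUS+ DC1 (3 arrays). From the spleens of female mice came Batf3-/- Irf8VENUS+ DC1 (3 arrays), WT Irf8VENUS+ DC1 (3 arrays) and WT Irf8VENUS- DC1 (2 arrays). Batf3-/- mice lack Batf3, a transcription factor gene on which DC1 depend, and Irf8VENUS is a fluorescent reporter of Irf8, another such gene. Every group but the last is labelled Irf8VENUS+; the labels do not say whether Irf8VENUS- means mice without the reporter or cells without its signal. Lymph node cells lacked B220, EpCam and CD172 and carried CD11c, MHCII and CD24. Resident cells were MHCIIint CD11chi and migratory cells MHCIIhi CD11cint. Spleen cells lacked B220 and SiglecH, carried CD11c, MHCII and, as labelled, CD172a, and were sorted on XCR1 and CD24, but for replicate 3 of the Batf3-/- and the WT Irf8VENUS+ group only CD24 was used. The labels give neither ages nor the number of mice behind an array. The p-values set group differences against the spread among arrays of a group, which may be partly technical and may not be that between mice.

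As background, resident DC1 enter lymph nodes from the blood as precursors, whereas migratory DC1 come from the skin through lymph vessels after they have matured. CCR7, which binds the lymph node chemokines CCL19 and CCL21, guides that journey and is the textbook receptor of mature dendritic cells. CXCR4 (for CXCL12) takes part in leaving the skin, CXCR5 (for CXCL13) leads cells to B cell follicles, and ACKR3 takes up CXCL12 without classical G protein signalling. CCR2 (for CCL2) and CX3CR1 (for CX3CL1) mark cells and precursors that come from the blood. CCR9 (for CCL25) is known from gut and thymus, CXCR3 (for CXCL9 and CXCL10) from positioning near activated T cells, and CCR6 (for CCL20) from skin and mucosa.

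The labels and the gates were checked first. Batf3 had a log2 intensity of 6.02 ± 0.15 in migratory Batf3-/- DC1 against 9.19 ± 0.06 in migratory WT DC1 (SD, n = 3 and 2), and 5.74 ± 0.23 in resident Batf3-/- DC1 against 8.38 ± 0.23 in resident WT DC1 (n = 3 and 3). In spleen it was 6.24 ± 0.90 in Batf3-/- DC1, 9.93 ± 0.42 in WT Irf8VENUS+ DC1 and 9.56 ± 0.20 in WT Irf8VENUS- DC1 (n = 3, 3 and 2). All 8 DC1 markers on the SDLN arrays and the 7 named on the spleen arrays passed the filter on dim genes. The summed linear level of the SDLN list was 6656 to 8458 in migratory Batf3-/- and 5457 to 6131 in migratory WT DC1, against 15760 to 16414 in resident Batf3-/- and 19513 to 21805 in resident WT DC1. Correlations between arrays ran between 0.906 and 0.991 in SDLN and between 0.915 and 0.974 in spleen. Both migratory WT arrays stood apart by a narrower spread of values, with an SD over all probe sets of 1.96 and 2.03, against 2.07 to 2.23 on the other SDLN arrays. The value of 2.07, close to migratory WT replicate 2, was that of migratory Batf3-/- replicate 3. Its mean correlation with its own group, 0.97, was the lowest of the migratory Batf3-/- arrays. Without it 3570 genes passed for Batf3-/- against WT in migratory DC1, beside 1123 with all arrays (adjusted p under 0.05, limma). Resident WT replicate 1 stood apart in Sirpa, the gene of CD172, at 7.82, against 5.31 and 5.67 on resident WT replicates 2 and 3. Spleen WT Irf8VENUS+ replicate 1 had the lowest mean correlation with its own group, 0.93. Where leaving 1 of these arrays out changed a call or moved a value by much, that value is given beside the result. Without migratory WT replicate 1 or 2 the WT switch passed for all 8 members tested, with 3.72 and 2.96 for Ccr7, 1.25 and 0.97 for Cxcr4, and 3.05 and 1.89 for Cxcr5.

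Promoter windows from RefSeq (build GRCm38.p6, the 250 bases before the annotated start) were found for 7 of the 9 genes. The windows of 6 of them are printed so that the genes that fell together in migratory DC1 (Ccr2, Ccr9, Cxcr3 and Cx3cr1) can be read beside 2 that rose in migratory WT DC1 (Cxcr4 and Ackr3). The windows are chr9:124101933-124102182 on the + strand for Ccr2, chr9:123766961-123767210 on the + strand for Ccr9, chrX:101734148-101734397 on the - strand for Cxcr3, chr9:120068297-120068546 on the - strand for Cx3cr1, chr1:128592300-128592549 on the - strand for Cxcr4 and chr1:90203730-90203979 on the + strand for Ackr3. Each is written 5′ to 3′ along the gene, with capitals marking matches to the motifs listed after them.
Ccr2: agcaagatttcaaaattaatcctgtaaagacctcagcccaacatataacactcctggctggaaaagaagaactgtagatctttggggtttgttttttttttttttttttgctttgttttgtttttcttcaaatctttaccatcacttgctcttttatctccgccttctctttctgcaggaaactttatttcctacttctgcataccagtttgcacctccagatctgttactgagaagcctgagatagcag
Ccr9: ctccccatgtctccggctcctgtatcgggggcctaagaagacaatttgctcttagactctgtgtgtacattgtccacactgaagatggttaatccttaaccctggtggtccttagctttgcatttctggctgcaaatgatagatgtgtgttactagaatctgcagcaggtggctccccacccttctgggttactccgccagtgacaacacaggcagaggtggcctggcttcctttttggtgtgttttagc
Cxcr3: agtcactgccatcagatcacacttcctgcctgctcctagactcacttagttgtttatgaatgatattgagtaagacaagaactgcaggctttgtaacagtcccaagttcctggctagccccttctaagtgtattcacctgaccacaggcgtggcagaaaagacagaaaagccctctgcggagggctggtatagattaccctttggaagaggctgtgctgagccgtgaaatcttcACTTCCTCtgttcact
Cx3cr1: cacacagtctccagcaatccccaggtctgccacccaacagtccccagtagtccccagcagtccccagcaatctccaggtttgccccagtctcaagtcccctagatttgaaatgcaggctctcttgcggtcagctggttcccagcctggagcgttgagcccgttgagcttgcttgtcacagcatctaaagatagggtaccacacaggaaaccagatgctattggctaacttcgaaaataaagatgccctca
Cxcr4: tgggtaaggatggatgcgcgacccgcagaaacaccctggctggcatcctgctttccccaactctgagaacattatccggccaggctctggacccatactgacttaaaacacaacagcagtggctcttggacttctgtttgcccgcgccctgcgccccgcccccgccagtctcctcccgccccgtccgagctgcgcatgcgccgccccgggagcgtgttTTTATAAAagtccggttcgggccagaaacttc
Ackr3: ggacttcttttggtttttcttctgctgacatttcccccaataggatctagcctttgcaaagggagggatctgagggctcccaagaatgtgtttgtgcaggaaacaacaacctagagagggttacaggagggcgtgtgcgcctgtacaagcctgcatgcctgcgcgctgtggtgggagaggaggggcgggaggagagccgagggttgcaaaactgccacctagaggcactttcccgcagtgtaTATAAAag

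Of 6 motifs searched on both strands, 2 had a match among these windows. The letters of PU.1 (GAGGAAGT) matched once, 16 to 9 bases before the Cxcr3 start, as ACTTCCTC on the opposite strand. PU.1 is a transcription factor of myeloid and dendritic cells, and 2.44% of all 32851 promoter windows hold these letters. The TATA box letters (TATAAA) matched in Cxcr4, 30 to 25 bases before the start with an overlapping match in the other direction, and in Ackr3, 8 to 3 bases before it. These letters are in 12.4% of all windows. Letters bound by AP-1 factors, the family to which BATF3 belongs (TGANTCA, in 6.75% of all windows), matched in none of the 8 windows of these genes, and neither did letters for IRF sites (2.98%), for an ETS and IRF pair (2.3%) or for NF-kB (1.41%). The match in Cxcr3 and the others are descriptions of these short windows and say nothing of binding. In the RefSeq gene order, Ccr9 and Ccr2 lie in 1 cluster on chromosome 9, in which Cxcr6 and Xcr1 follow Ccr9. Cx3cr1 and Cxcr5 are on chromosome 9 outside that cluster, and Ccr6, Ccr7 and Cxcr3 are on chromosomes 17, 11 and X.

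The first question was how the receptors differ between migratory and resident DC1 of the same lymph nodes, which is called the switch here. The differences were large and went both ways. In Batf3-/- DC1 6 of the 8 members tested passed (adjusted p under 0.05, limma), 2 higher and 4 lower in migratory cells. In WT DC1 all 8 passed, 4 higher and 4 lower. Many genes changed in these comparisons: 36.6% of the 11931 genes tested passed in Batf3-/- DC1 (14.1% higher, 22.6% lower) and 49.2% in WT DC1 (16.0% higher, 33.2% lower). A count of members is therefore read beside a high background. Overlap of arrays between groups is given here and below as a description, since the share of all genes without overlap was not counted. Among all genes tested, Ccr2, Cxcr3 and Ccr9 held ranks 4, 9 and 10 of the falls in Batf3-/- DC1 and ranks 8, 9 and 13 in WT DC1. Migratory Ccr2 and Ccr9 lay about the filter level, so that the floor of the arrays bounds the size of their fall and its rank. The median log2 fold change over the 8 members was -1.01 in Batf3-/- and -0.35 in WT DC1, beside -0.02 and -0.16 over all genes. These arrays are bulk samples, in which fewer cells of a type and less RNA per cell cannot be told apart.

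**Figure D1:**
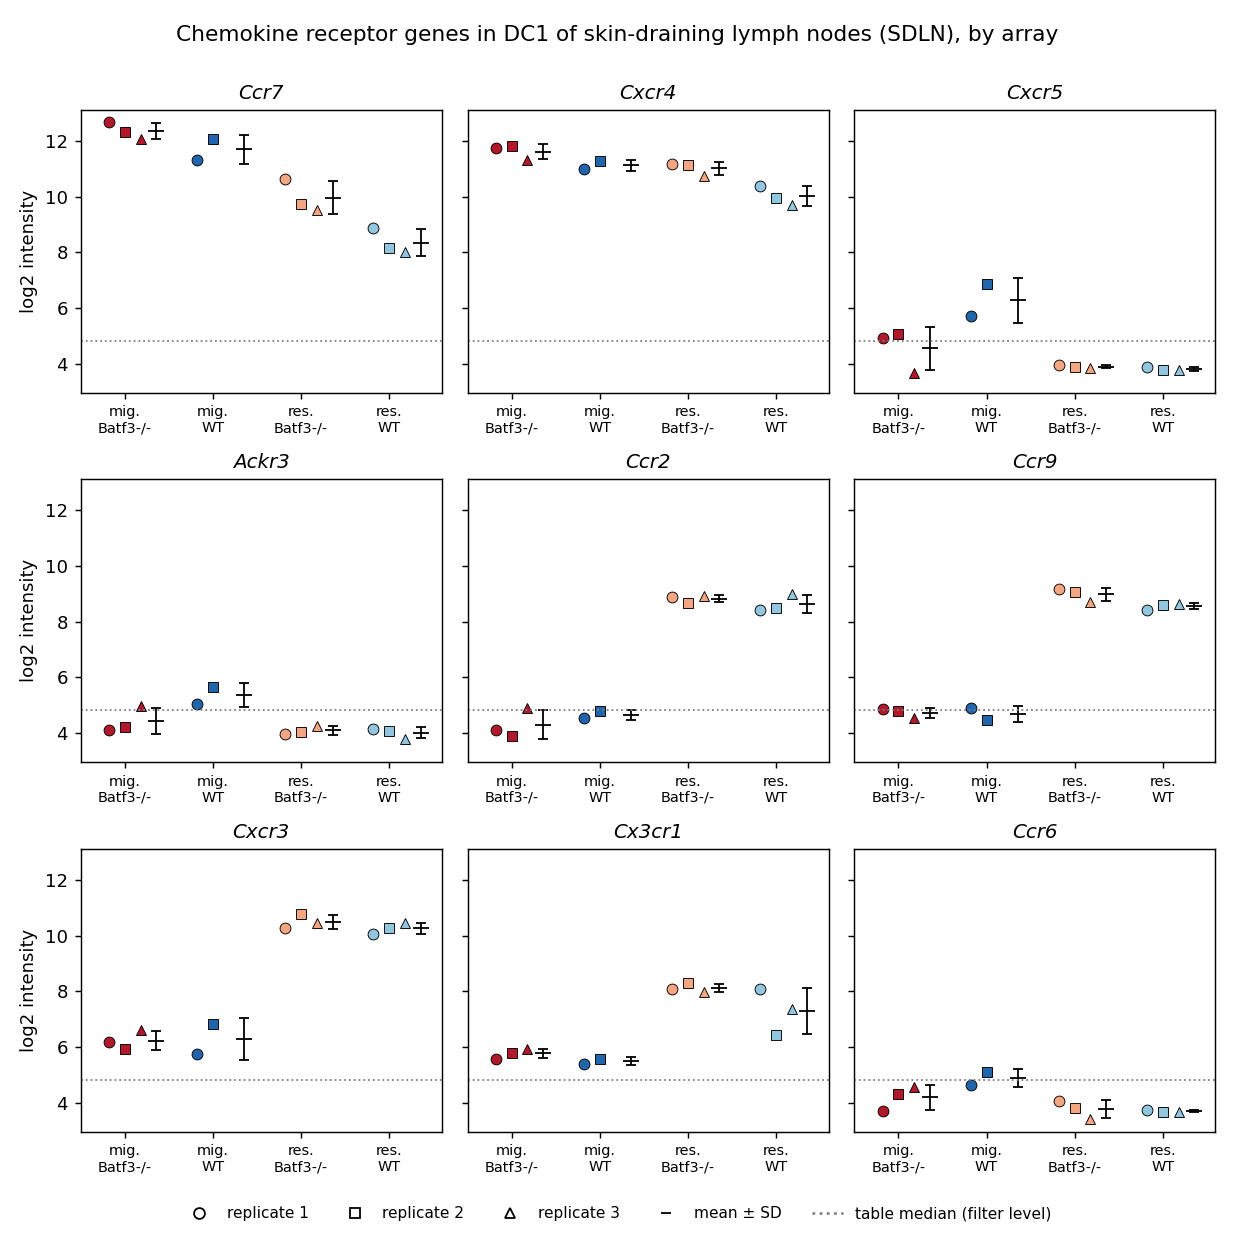
Log2 intensity of the 9 receptor genes on each SDLN array, with 1 panel per gene and the groups from left to right as migratory Batf3-/-, migratory WT, resident Batf3-/- and resident WT. Symbols are single arrays by replicate number, bars are the mean ± SD (n = 3, 2, 3 and 3) and the dotted line is the table median of 4.82. Ccr2, Ccr9 and Cxcr3 lie near or toward that line in both migratory groups and far above it in both resident groups, while Ccr7 runs the other way.

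Ccr7, the receptor for CCL19 and CCL21, was the member with the highest rise in both genotypes. It read 12.66, 12.33 and 12.08 on the migratory Batf3-/- arrays, against 10.63, 9.73 and 9.53 on the resident Batf3-/- arrays. It read 11.31 and 12.07 on the migratory WT arrays, against 8.88, 8.16 and 7.99 on the resident WT arrays. Migratory and resident arrays did not overlap in either genotype, and resident Batf3-/- arrays all lay above resident WT arrays. Ccr7 rose by 2.39 ± 0.31 in Batf3-/- DC1 (moderated SE, adjusted p = 6.63e-05) and by 3.34 ± 0.35 in WT DC1 (adjusted p = 1.39e-05), about 5.24-fold and 10.1-fold. The lymph node titles carry a code (A, B or C here) that arrays of replicate 1, 2 or 3 share, and within code the rise was 2.02, 2.60 and 2.55 in Batf3-/- DC1 and 2.43 and 3.90 in WT DC1 (codes A and B). Ccr7 is one of the genes by which mature migratory dendritic cells are known. All 8 genes of a migratory DC list, among them Fscn1 and Ccl22, were higher in migratory cells in both genotypes. Over all genes 14.1% were in Batf3-/- and 16.0% in WT DC1.

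Cxcr4, the CXCL12 receptor, was bright in every SDLN group and rose less. It read 11.74, 11.80 and 11.30 in migratory Batf3-/- DC1, against 11.16, 11.14 and 10.74 in resident Batf3-/- DC1. The WT arrays read 10.98 and 11.27 in migratory DC1, against 10.39, 9.96 and 9.70 in resident DC1. All migratory arrays lay above the resident arrays of their genotype, yet migratory WT DC1 overlapped with resident Batf3-/- DC1. The rise was 0.60 ± 0.19 in Batf3-/- DC1 (adjusted p = 0.027) and 1.11 ± 0.21 in WT DC1 (adjusted p = 0.0012). Within code it was 0.58, 0.66 and 0.55 in Batf3-/- DC1, and 0.60 and 1.31 in WT DC1. With the replicate number as a block over all 11 SDLN arrays the Batf3-/- rise passed (adjusted p = 0.00375, limma). That block also ties WT to Batf3-/- arrays of the same number, so it is not a paired test of the Batf3-/- arrays alone. In the fit without the block that call was lost without migratory Batf3-/- replicate 1 (0.54, adjusted p = 0.0833) or replicate 2 (0.50, adjusted p = 0.0972), without resident Batf3-/- replicate 3 (0.46, adjusted p = 0.0963) and with median centring of the arrays (0.54, adjusted p = 0.0678).

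Ccr2, the receptor for CCL2 that lets monocytes and precursors leave the bone marrow, had the largest fall of the members in Batf3-/- DC1. It read 4.10, 3.91 and 4.90 on the migratory Batf3-/- arrays, against 8.89, 8.68 and 8.91 on the resident Batf3-/- arrays. In WT DC1 it read 4.53 and 4.78 on the migratory arrays, against 8.41, 8.51 and 9.0 on the resident arrays. The migratory values lay about the filter level of 4.82, so Ccr2 had a clear signal in the resident cells only. It fell by 4.52 ± 0.24 in Batf3-/- DC1 (adjusted p = 9.05e-08) and by 3.98 ± 0.27 in WT DC1 (adjusted p = 7.28e-07), 23-fold and 15.8-fold between values of which the lower are near the floor of the arrays.

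Ccr9, the CCL25 receptor, followed almost the same course. It read 4.87, 4.79 and 4.53 in migratory Batf3-/- DC1, against 9.17, 9.07 and 8.71 in resident Batf3-/- DC1. Among WT arrays it read 4.89 and 4.47 in migratory DC1, against 8.43, 8.60 and 8.63 in resident DC1. Migratory arrays lay at the filter level and resident arrays well above it, with no overlap. The fall was 4.26 ± 0.18 in Batf3-/- DC1 (adjusted p = 3.85e-08) and 3.87 ± 0.20 in WT DC1 (adjusted p = 1.76e-07).

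Cxcr3, the receptor for CXCL9 and CXCL10, stayed above the filter level in migratory cells. It read 6.16, 5.93 and 6.59 in migratory Batf3-/- DC1, against 10.26, 10.77 and 10.44 in resident Batf3-/- DC1. In WT cells it read 5.75 and 6.81 in migratory DC1, against 10.07, 10.27 and 10.45 in resident DC1. The gap between migratory and resident arrays exceeded the spread within any group. Cxcr3 fell by 4.26 ± 0.26 in Batf3-/- DC1 (adjusted p = 2.22e-07) and by 3.98 ± 0.30 in WT DC1 (adjusted p = 1.21e-06). For Ccr2, Ccr9 and Cxcr3 the fall passed under every alternative tried in both genotypes.

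Cx3cr1, the fractalkine receptor, fell less, and its resident WT arrays were spread. It read 5.58, 5.78 and 5.93 in migratory Batf3-/- DC1, against 8.08, 8.29 and 7.99 in resident Batf3-/- DC1. The values in WT were 5.38 and 5.58 in migratory DC1, against 8.08, 6.43 and 7.35 in resident DC1. Resident WT replicate 1, the array with the high Sirpa value, was the highest of its group. Cx3cr1 fell by 2.35 ± 0.31 in Batf3-/- DC1 (adjusted p = 7.4e-05) and by 1.81 ± 0.35 in WT DC1 (adjusted p = 0.00112). The WT difference was -2.70 within title code A and -0.86 within B. It was -2.04 (adjusted p = 0.172) with the SD of each array as a term. The migratory WT arrays have the lowest SDs, so that term and that group can be told apart only in part.

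Markers of other cells in which these receptors are known also differed between the gates. Of 4 monocyte and macrophage markers tested, Lyz2 fell in both genotypes, by 2.5 ± 0.20 in Batf3-/- and by 3.17 ± 0.23 in WT DC1, and C1qa and C1qb rose in Batf3-/- DC1. The summed level of the 7 named was 313 to 327 in migratory Batf3-/- and 269 to 274 in migratory WT DC1, against 753 to 995 in resident Batf3-/- and 1045 to 1285 in resident WT DC1, and 2 of them stayed below the filter level on all arrays. Lyz2 reached a log2 intensity of 10.07 and the next brightest, Csf1r, 6.58, so the resident sums are mostly those of Lyz2. Of 7 cDC2 markers (genes of the other conventional DC subset) 1 rose and 4 fell in each genotype. All 8 DC1 markers fell in both. Over all genes tested 14.1% rose and 22.6% fell in Batf3-/- DC1, and 16.0% rose and 33.2% fell in WT DC1. T cells, which also carry CCR7 and CXCR4, were read by 6 markers, of which Cd3g (1.73 ± 0.64) and Cd3d (1.70 ± 0.37) rose in WT and none passed in Batf3-/- DC1. The T cell sum was 384 to 773 in migratory Batf3-/- and 541 to 1011 in migratory WT DC1, against 422 to 841 in resident Batf3-/- and 369 to 429 in resident WT DC1. Of 7 pDC markers Ly6d and Spib rose, by 0.99 ± 0.36 and 1.13 ± 0.34 in Batf3-/- and by 2.70 ± 0.40 and 1.98 ± 0.38 in WT DC1. The part of other cells in the switch of the receptors was not tested.

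Cxcr5, Ackr3 and Ccr6 were dim. Cxcr5 and Ackr3 reached the filter level on migratory arrays alone, so that they were tested only because they were higher there, and their count among the members called carries little weight. Cxcr5, the CXCL13 receptor, read 4.91, 5.07 and 3.65 in migratory Batf3-/- DC1, against 3.96, 3.87 and 3.84 in resident Batf3-/- DC1. WT values were 5.70 and 6.85 in migratory DC1, against 3.87, 3.76 and 3.78 in resident DC1. Both migratory WT arrays lay above all others, and migratory Batf3-/- replicate 3 lay below every resident array. The log2 difference was 0.65 ± 0.33 in Batf3-/- DC1 (adjusted p = 0.15), and Cxcr5 rose by 2.47 ± 0.37 in WT DC1 (adjusted p = 0.000217). Without migratory Batf3-/- replicate 3, Cxcr5 passed in Batf3-/- DC1 as well (1.10, adjusted p = 0.00459).

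B cells are known for high CXCR5, and B cell markers moved with Cxcr5 although the gate removed B220+ cells. In WT DC1 all 7 B cell markers tested were higher in migratory cells, beside 16.0% of all genes. In Batf3-/- DC1 2 were, Ebf1 (1.27 ± 0.27) and Fcer2a (0.86 ± 0.31), beside 14.1% of all genes. The summed linear level of the 7 was 210 to 436 in migratory Batf3-/- and 454 to 586 in migratory WT DC1, against 171 to 223 in resident Batf3-/- and 151 to 209 in resident WT DC1. None of the 7 stayed below the filter level on all arrays. Ms4a1, the gene of the B cell protein CD20, read 5.36 and 6.34 on the migratory WT arrays, against 4.01, 3.59 and 3.62 on the resident WT arrays. Its resident WT values lay below the filter level of 4.82. Dim markers such as Ms4a1, like Cxcr5, may have been tested only because they were higher in migratory cells. The count of 7 therefore carries little weight. The part of these cells in the Cxcr5 result was not tested.

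**Figure D2:**
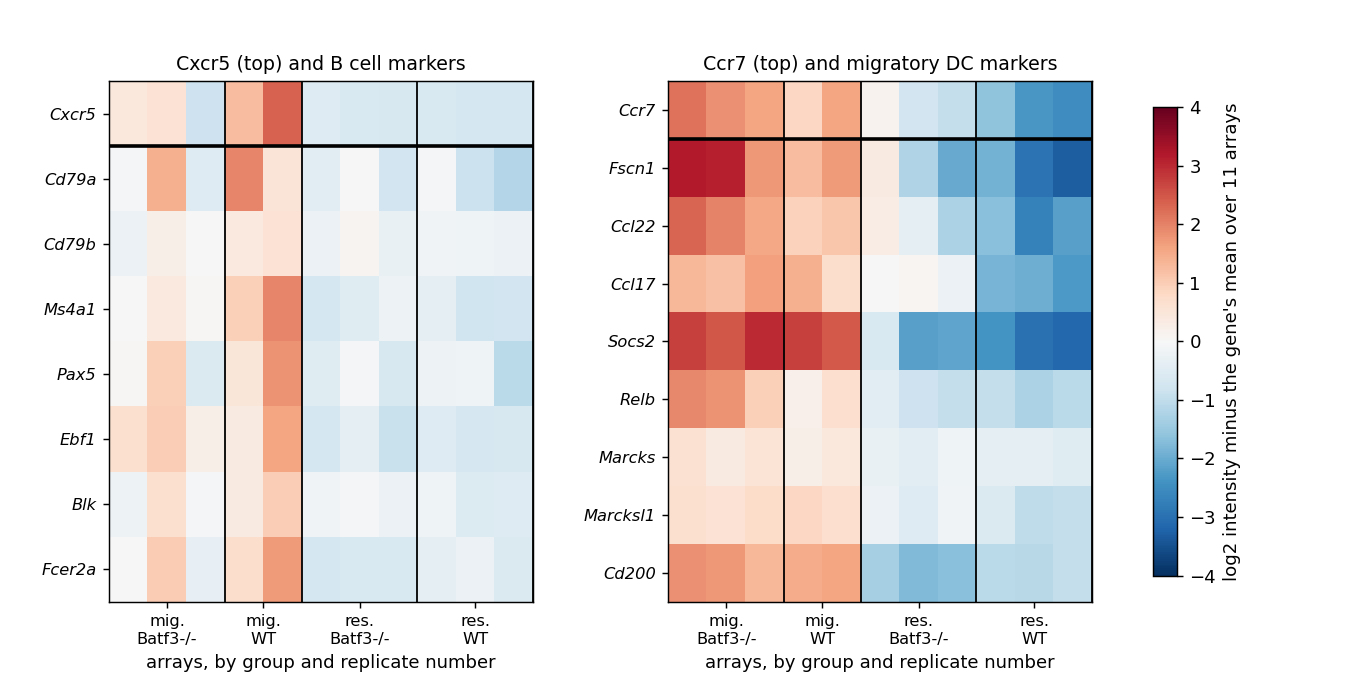
Log2 intensity minus each gene's mean over the 11 SDLN arrays (colour scale), with arrays in columns grouped from left to right as migratory Batf3-/-, migratory WT, resident Batf3-/- and resident WT. The left panel has Cxcr5 above 7 B cell markers and the right panel Ccr7 above 8 migratory DC markers. Migratory WT replicate 2, the second column of its group, is the highest array for Cxcr5 (6.85) and for Ms4a1 (6.34), and Ccr7 and the 8 genes below it are higher on average in the migratory than in the resident groups.

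Ackr3, the scavenger receptor for CXCL12, read 4.12, 4.22 and 4.97 in migratory Batf3-/- DC1, against 3.98, 4.03 and 4.27 in resident Batf3-/- DC1. Its values in WT were 5.05 and 5.66 in migratory DC1, against 4.16, 4.07 and 3.78 in resident DC1. The migratory WT arrays were above all others by a small margin over migratory Batf3-/- replicate 3. The difference was 0.34 ± 0.22 in Batf3-/- DC1 (adjusted p = 0.265), and Ackr3 rose by 1.35 ± 0.25 in WT DC1 (adjusted p = 0.000915). With the SD of each array as a term the WT difference was 0.66 (adjusted p = 0.549). That term cannot be told apart in full from the migratory WT group, whose arrays have the lowest SDs.

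Ccr6, the CCL20 receptor, did not pass the filter, as 1 array reached its level. It read 3.68, 4.32 and 4.55 in migratory Batf3-/- DC1, against 4.06, 3.81 and 3.42 in resident Batf3-/- DC1. WT arrays read 4.64 and 5.10 in migratory DC1, against 3.75, 3.67 and 3.67 in resident DC1. Like Cxcr5 and Ackr3 it was highest on the migratory WT arrays, whose values spread less over all probe sets; the part of that spread was not tested. With no filter on dim genes Ccr6 differed by 1.17 in WT DC1 (adjusted p = 0.00187) and by 0.42 in Batf3-/- DC1 (adjusted p = 0.195). Such values lie so near the floor of the arrays that a signal cannot be told from its absence.

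**Figure D3:**
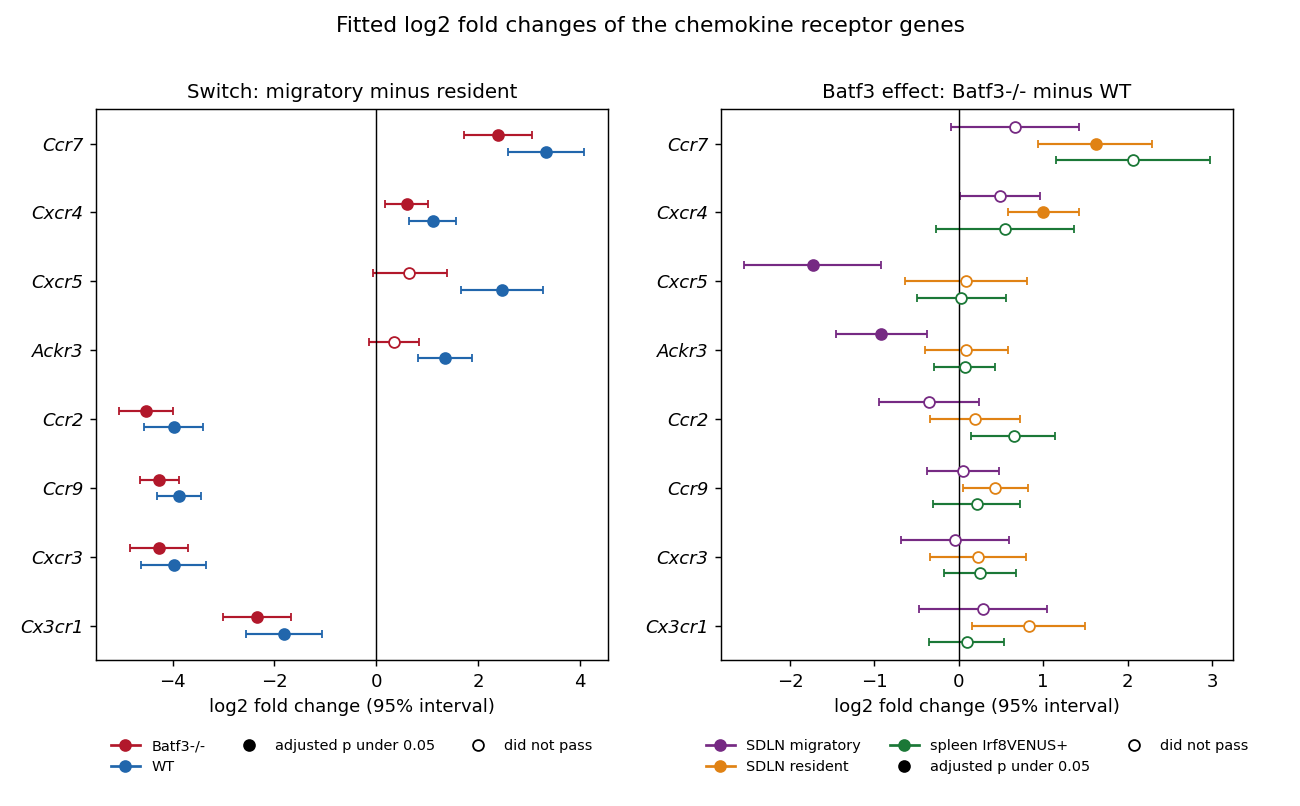
Fitted log2 fold changes with 95% intervals for the 8 members tested. The left panel gives migratory minus resident DC1 in Batf3-/- (red) and WT (blue), and the right panel Batf3-/- minus WT in migratory SDLN, resident SDLN and spleen Irf8VENUS+ DC1. Filled points passed (adjusted p under 0.05). Ccr2, Ccr9, Cxcr3 and Cx3cr1 fell in both genotypes on the left, and on the right Ccr7 and Cxcr4 passed in resident and Cxcr5 and Ackr3 in migratory DC1.

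The second question was whether the loss of Batf3 changed the receptors within each population. In migratory DC1, 2 of the 8 members passed, Cxcr5 and Ackr3, both lower in Batf3-/- cells, where 9.41% of all genes tested passed (7.13% higher, 2.28% lower). Cxcr5 fell by 1.73 ± 0.37 (adjusted p = 0.0185, 3.32-fold), with 4.91, 5.07 and 3.65 in Batf3-/- against 5.70 and 6.85 in WT DC1. Ackr3 fell by 0.92 ± 0.25 (adjusted p = 0.04), with 4.12, 4.22 and 4.97 in Batf3-/- against 5.05 and 5.66 in WT DC1. The groups did not overlap for either gene, which is a description only, and both were dim. Ackr3 reached the filter level on both migratory WT arrays and on 1 migratory Batf3-/- array, and Cxcr5 on both WT and 2 Batf3-/- arrays, so that Ackr3 was tested only because it was higher in WT and its call carries little weight.

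Neither of those calls was steady. Without migratory WT replicate 2, the array with the highest Cxcr5 and B cell values, Cxcr5 differed by -1.15 (adjusted p = 0.0852), and in a fit of the migratory arrays alone its adjusted p was 0.12. Ackr3 lost its call in 11 of 20 alternatives, 9 of which left out 1 array: any resident WT array, resident Batf3-/- replicate 1 or 2, migratory Batf3-/- replicate 1 (-0.76, adjusted p = 0.137) or 2 (-0.81, adjusted p = 0.133), or migratory WT replicate 1 (-1.22, adjusted p = 0.0798) or 2 (-0.62, adjusted p = 0.175). With the SD of each array as a term Ackr3 differed by -0.50 (adjusted p = 0.645). The same term moved Cxcr5 the other way, to -3.27 (adjusted p = 0.00963) here and to 5.0 (adjusted p = 0.00131) in the WT switch. Of the B cell markers, Ms4a1 was also lower in migratory Batf3-/- DC1 (-1.30 ± 0.26, adjusted p = 0.0151), and the other 6 did not pass. Ly6d of the pDC list was lower too (-1.70 ± 0.40, adjusted p = 0.0252). The part of B cells, of pDC and of the array spread in these calls was not tested.

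The other members did not pass in migratory DC1. Ccr7 differed by 0.67 ± 0.35 (95% interval -0.09 to 1.42, adjusted p = 0.218), with every Batf3-/- array at or above 12.08 and the WT arrays at 11.31 and 12.07. Cxcr4 differed by 0.49 ± 0.21 (0.02 to 0.96, adjusted p = 0.15), also with no overlap and with 0.76 and 0.54 within codes A and B. Without migratory Batf3-/- replicate 3, Cxcr4 passed (0.65, adjusted p = 0.0351), and so did Ccr2 (-0.65, adjusted p = 0.0364). For Ccr9 the interval was -0.38 to 0.48, for Cxcr3 -0.69 to 0.59 and for Cx3cr1 -0.47 to 1.04. For Ccr2 it was -0.94 to 0.24. Ccr2 and Ccr9 lay about the floor of the arrays in both migratory groups, so their intervals do not limit a change in the transcript. Of the brighter genes, a difference of over 1 log2 unit lay outside the interval for Cxcr3 and Cxcr4 but not for Ccr7 or Cx3cr1.

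In resident DC1, 2 of the 8 members passed, both higher in Batf3-/- cells, where 1.84% of all genes passed (0.847% higher, 0.997% lower). They were Ccr7 and Cxcr4, which also rose in the switch, a comparison that shares the resident arrays. Ccr7 rose by 1.62 ± 0.31 (adjusted p = 0.0183, 3.06-fold), with 10.63, 9.73 and 9.53 in Batf3-/- against 8.88, 8.16 and 7.99 in WT DC1. Cxcr4 rose by 1.00 ± 0.19 (adjusted p = 0.0183), with 11.16, 11.14 and 10.74 in Batf3-/- against 10.39, 9.96 and 9.70 in WT DC1. No array of 1 genotype overlapped with the other for either gene, a description given without the share of all genes that did not overlap. Within title codes A, B and C the difference was 1.75, 1.57 and 1.53 for Ccr7 and 0.77, 1.19 and 1.04 for Cxcr4.

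The direction of both held in each alternative, but the calls were lost when some arrays were left out. Ccr7 missed the threshold without resident Batf3-/- replicate 1 (1.28, adjusted p = 0.0665) and without resident WT replicate 2 (1.52, adjusted p = 0.0959) or 3 (1.44, adjusted p = 0.104). Cxcr4 missed it without resident Batf3-/- replicate 1 (0.93, adjusted p = 0.0891) or 2 (0.94, adjusted p = 0.094) and without resident WT replicate 2 (0.97, adjusted p = 0.0951) or 3 (0.84, adjusted p = 0.102). Without resident WT replicate 1, the array with the high Sirpa value, both still passed.

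Some markers of mature migratory DCs moved with Ccr7 and Cxcr4 in the resident gate. Ccl17 (2.0 ± 0.21) and Ccl22 (1.74 ± 0.35), chemokine genes of mature DCs, rose in Batf3-/- resident DC1, where 0.847% of all genes did. The other 6 genes of that list did not pass. Among those 6, Fscn1 (1.76), Socs2 (1.21), Marcksl1 (0.54), Relb (0.34) and Marcks (0.12) had positive differences. Cd200 differed the other way (-0.54, interval -0.91 to -0.17). The summed level of the list was 4528 to 5955 in resident Batf3-/- DC1, against 3351 to 4018 in resident WT DC1, and 12221 to 19175 over the migratory arrays. Resident Batf3-/- replicate 1 had the highest Ccr7 (10.63) and Fscn1 (9.65) of the resident arrays. Of 7 cDC2 markers 2 also rose, Clec10a and Mgl2, with 8.00 to 8.14 for Clec10a in resident Batf3-/- DC1, against 5.23 to 6.32 in resident WT DC1. None of the others passed. Sirpa (-1.03), which was high on resident WT replicate 1, Cd209a (-0.42) and Esam (-0.13) differed the other way. Klf4 (0.62) and Cd4 (0.31) had positive differences. Cldn1, the 1 gene tested of a list of 4 known from Langerhans cells, rose by 1.35 ± 0.19, while Epcam and Cdh1 of the same list were below the filter level on all SDLN arrays. The gate removed CD172+ cells, as cDC2 are, and EpCam+ cells, as Langerhans cells are. The part of migratory cells, of cDC2 or of Langerhans cells in the Ccr7 and Cxcr4 results was not tested.

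Of the remaining members in resident DC1, Cx3cr1 differed by 0.83 ± 0.31 (0.16 to 1.5, adjusted p = 0.327). It read 8.08, 8.29 and 7.99 in Batf3-/- DC1, against 8.08, 6.43 and 7.35 in WT DC1. The overlap came from resident WT replicate 1, and without that array Cx3cr1 passed (1.23, adjusted p = 0.0349). Ccr9 differed by 0.43 ± 0.18 (0.05 to 0.82, adjusted p = 0.413), with all Batf3-/- arrays at or above 8.71 and all WT arrays at or below 8.63. Ccr2 (-0.34 to 0.72) and Cxcr3 (-0.34 to 0.80) had intervals that left out a change of 1 log2 unit in either direction. Cxcr5 (-0.64 to 0.81) and Ackr3 (-0.40 to 0.58) were below the filter level on all resident arrays, so their intervals do not limit a change in the transcript.

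Whether the Batf3 effect differed between migratory and resident DC1, which is also whether the switch differed between genotypes, was tested directly. None of the 8 members passed by limma, where 1.24% of all genes did (0.721% higher, 0.520% lower). At an unadjusted p under 0.05 there were 2 members, Cxcr5 and Ackr3, beside 19.2% of all genes. The difference of the effects was -1.82 ± 0.50 for Cxcr5 (adjusted p = 0.092) and -1.01 ± 0.34 for Ackr3 (adjusted p = 0.141). Both passed without migratory Batf3-/- replicate 3 (Cxcr5 -1.37, adjusted p = 0.0268, and Ackr3 -1.28, adjusted p = 0.0126). For Ccr7 it was -0.95 ± 0.46 (-1.96 to 0.06, adjusted p = 0.289) and for Cxcr4 -0.51 ± 0.29 (-1.14 to 0.11, adjusted p = 0.351), so that neither a smaller rise in Batf3-/- cells nor an equal one was shown. For Ccr2, Ccr9, Cxcr3 and Cx3cr1 it lay between -0.54 and -0.28, with adjusted p-values between 0.435 and 0.725.

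In spleen Irf8VENUS+ DC1, none of the 8 members passed for Batf3-/- against WT by limma, where 0.738% of all genes did (0.435% higher, 0.303% lower). At an unadjusted p under 0.05 there were 2 members, Ccr7 and Ccr2, beside 10.4% of all genes. Ccr7 had the largest difference, as in resident SDLN DC1. It read 10.45, 10.47 and 9.90 in Batf3-/- DC1, against 7.39, 8.99 and 8.24 in WT Irf8VENUS+ DC1. The groups did not overlap, though the share of all genes without overlap was not counted. The fitted difference was 2.06 ± 0.39 (1.15 to 2.97, adjusted p = 0.07). Among arrays gated on both CD24 and XCR1 it was 2.27 (adjusted p = 0.22), and for the 2 arrays gated on CD24 only it was 1.65. WT Irf8VENUS+ replicate 1, which correlated least with its group, was the lowest. Without it the difference was 1.55 and passed (adjusted p = 0.0168), and without WT Irf8VENUS+ replicate 2 it was 2.46 and passed (adjusted p = 0.0428). Without any 1 of the other 6 arrays it lay between 2.0 and 2.27 and did not pass (adjusted p between 0.119 and 0.304).

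**Figure D4:**
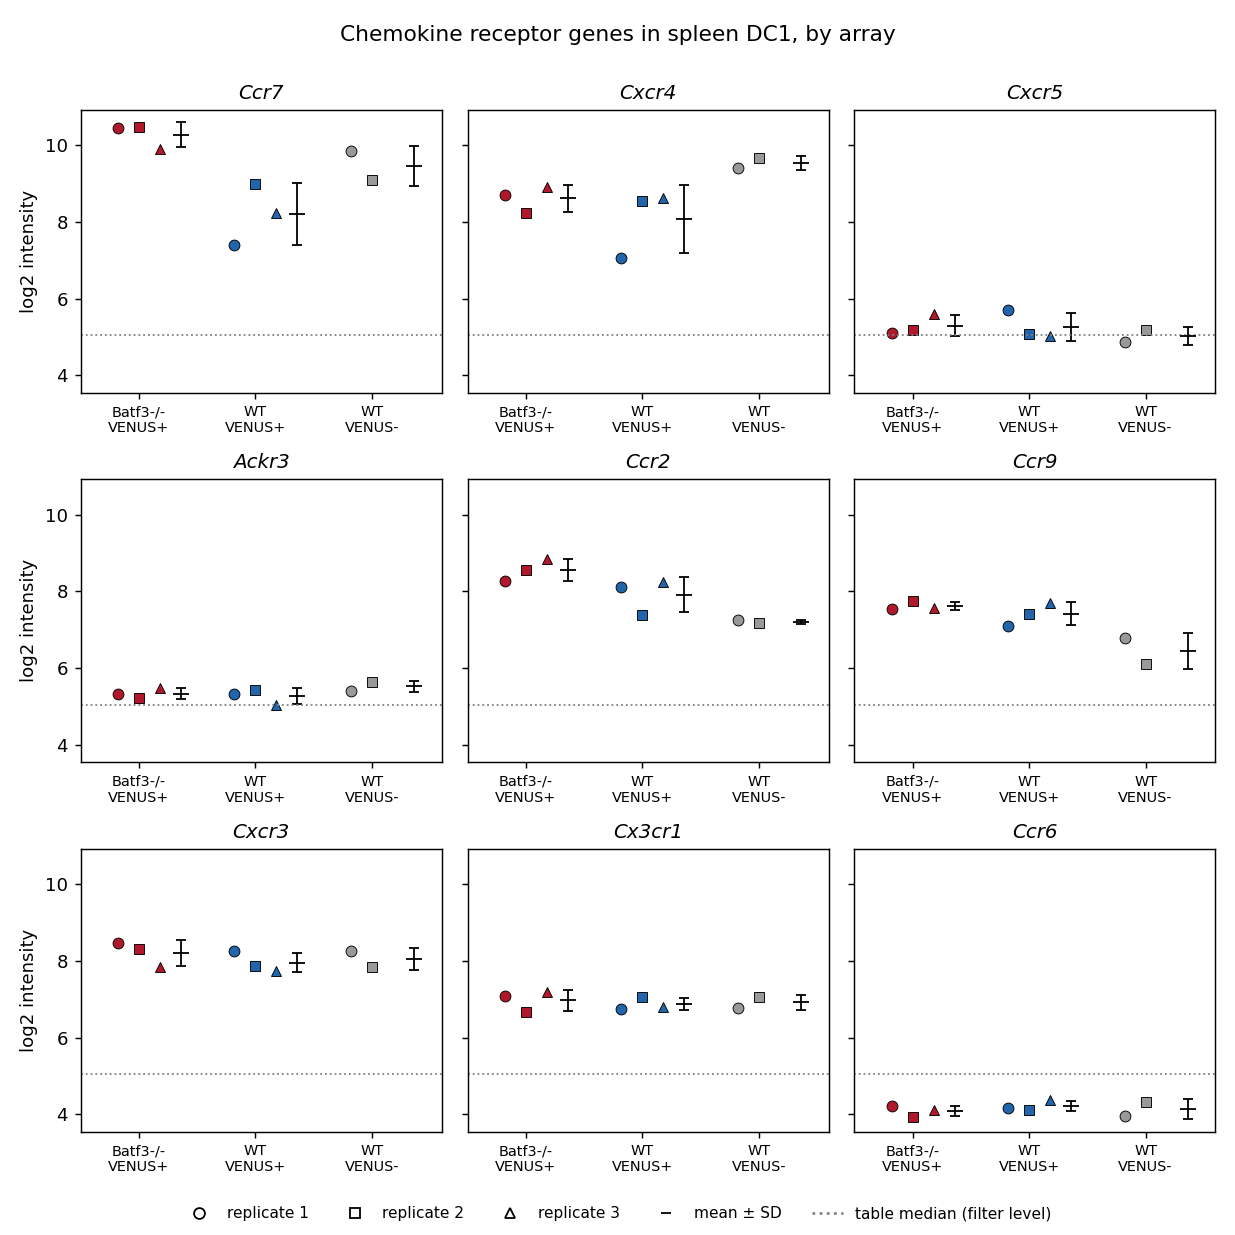
Log2 intensity of the 9 receptor genes on each spleen array, with 1 panel per gene and the groups from left to right as Batf3-/- Irf8VENUS+, WT Irf8VENUS+ and WT Irf8VENUS-. Symbols are single arrays by replicate number, bars are the mean ± SD (n = 3, 3 and 2) and the dotted line is the table median of 5.04. Ccr7 is higher on every Batf3-/- array than on any WT array, and Ccr6 is below the line on all arrays.

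The WT Irf8VENUS- arrays gave another level of Ccr7. They read 9.84 and 9.09, a mean of 9.46, set between means of 10.27 for Batf3-/- arrays and 8.21 for WT Irf8VENUS+ arrays, and apart from both by range. The summed linear level of 8 markers of mature DCs had the same order, with 1723 to 2528 in Batf3-/- DC1, 855 to 1195 in WT Irf8VENUS+ DC1 and 1579 to 1672 in WT Irf8VENUS- DC1. Ccl22 weighs most in this sum, with a highest log2 intensity of 10.34, against 8.92 for the next, Marcks. Of those 8 markers Fscn1 alone rose in Batf3-/- against WT Irf8VENUS+ DC1 (1.41 ± 0.19, adjusted p = 0.0191), where 0.435% of all genes did. Cldn1 rose as well (2.73 ± 0.39, adjusted p = 0.0258), and 1 of 5 cDC2 markers tested did. The part of such cells in the Ccr7 difference was not tested. The comparisons with the Irf8VENUS- group were not tested for the receptors.

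Cxcr4 read 8.70, 8.24 and 8.92 in spleen Batf3-/- DC1, 7.05, 8.54 and 8.63 in WT Irf8VENUS+ DC1 and 9.42 and 9.67 in WT Irf8VENUS- DC1. The Irf8VENUS- arrays were the highest, and the low value was again that of WT Irf8VENUS+ replicate 1. The Batf3 difference was 0.55 ± 0.36 (-0.27 to 1.37, adjusted p = 0.664). It was 0.09 (adjusted p = 0.932) without WT Irf8VENUS+ replicate 1, 0.94 (adjusted p = 0.306) without WT Irf8VENUS+ replicate 2 and 0.38 (adjusted p = 0.92) without Batf3-/- replicate 1. Ccr2 read 8.27, 8.56 and 8.86 in Batf3-/- DC1, 8.13, 7.39 and 8.24 in WT Irf8VENUS+ DC1 and 7.25 and 7.17 in WT Irf8VENUS- DC1. The 3 groups did not overlap, and the Batf3 difference was 0.65 ± 0.21 (0.15 to 1.14, adjusted p = 0.313).

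Ccr9 in spleen read 7.54, 7.75 and 7.58 in Batf3-/- DC1, 7.11, 7.42 and 7.71 in WT Irf8VENUS+ DC1 and 6.78 and 6.11 in WT Irf8VENUS- DC1. The Irf8VENUS+ groups overlapped, and the Irf8VENUS- arrays lay below both. Cxcr3 (7.75 to 8.48) and Cx3cr1 (6.67 to 7.19) had ranges that overlapped in all 3 groups. Their Batf3 differences were 0.25 ± 0.19 for Cxcr3 and 0.10 ± 0.19 for Cx3cr1. Cxcr5 (4.86 to 5.69) and Ackr3 (5.04 to 5.63) lay about the filter level of 5.04, and Ccr6 (3.94 to 4.37) was below it on all 8 arrays. In spleen DC1 Ccr2, Ccr9, Cxcr3 and Cx3cr1 thus lay well above that table's filter level on every array. The tables were normalized separately, and no level was set across them.

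The order of the groups within each SDLN receptor sums up these values. Ccr7 had the order migratory Batf3-/- (12.35), migratory WT (11.69), resident Batf3-/- (9.96) and resident WT (8.35), and no neighbours overlapped. Cxcr4 had the same order (11.61, 11.12, 11.02 and 10.02), with overlap between migratory WT and resident Batf3-/- DC1. Cxcr3 and Ccr2 ran from resident Batf3-/- (10.49 and 8.83) and resident WT (10.26 and 8.64) to migratory WT (6.28 and 4.66) and migratory Batf3-/- (6.23 and 4.31), and for both the genotypes overlapped within each population. Ccr9 ran from resident Batf3-/- (8.99) and resident WT (8.55) to the migratory groups (4.73 in Batf3-/- and 4.68 in WT, which overlapped). Cx3cr1 had the same order as Ccr9 (8.12, 7.29, 5.76 and 5.48), with overlap between the resident groups.

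Likeness was measured as the root mean square difference between 2 genes' log2 values over the 11 SDLN arrays, each gene centred on its own mean, among 11284 named genes tested. It is a description, since the arrays share groups and normalization. The gene nearest to Ccr2 was another member, Cxcr3 (0.29), and Ccr9 (0.42) was the third. The nearest to Cxcr3 was P2ry6 (0.25), a receptor gene for extracellular nucleotides, followed by Ccr2. Ccr7 lay nearest to Mreg (0.24) and Ccl22 (0.27), a chemokine gene of mature DCs. Cxcr4 lay nearest to Rab8b (0.23), a gene of membrane traffic. Cxcr5 lay nearest to 3 genes known from B cells, Ms4a1 (0.38), Fcer2a (0.39) and Fcmr (0.41). Ccr9 lay nearest to Parvg (0.32) and Cx3cr1 to Enc1 (0.31) and Ccl4 (0.36). Ackr3 lay nearest to Olfr1346, Gng11 and Ceacam15 (0.18 each).

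The ligands of the 9 receptors were read in the same cells. Of 10 ligand genes tested, 3 were higher and 4 lower in migratory cells, in Batf3-/- and again in WT DC1, beside the 36.6% and 49.2% of all genes. Ccl19, the ligand of CCR7, rose by 1.59 ± 0.28 in Batf3-/- and by 3.19 ± 0.32 in WT DC1, in the same direction as its receptor. Cxcl13, the ligand of CXCR5, rose by 1.40 ± 0.31 in WT DC1 and by 0.93 ± 0.28 in Batf3-/- DC1. Cxcl9, a ligand of CXCR3, fell with its receptor, by 2.82 ± 0.18 in Batf3-/- and by 1.29 ± 0.20 in WT DC1, and Cxcl10 fell by 1.47 ± 0.33 in Batf3-/- DC1. For the loss of Batf3, 1 of the 10 rose and 2 fell in migratory DC1, beside 9.41% of all genes. Cx3cl1, the ligand of CX3CR1, rose by 1.52 ± 0.28, and Ccl19 and Cxcl9 fell by 1.60 ± 0.32 and 1.42 ± 0.20. These calls were lost in 3 of 21 alternatives for Cx3cl1 (down to 0.49), 4 for Ccl19 (-0.32) and 2 for Cxcl9 (-0.88), where each of these values is that with the SD of each array as a term. In resident DC1 Cx3cl1 rose (1.15 ± 0.25) and Ccl2, the ligand of CCR2, fell by 1.23 ± 0.25, beside 1.84% of all genes. These 2 calls were lost in 10 and 6 of 21 alternatives. In spleen none of 10 ligand genes passed.

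**Figure D5:**
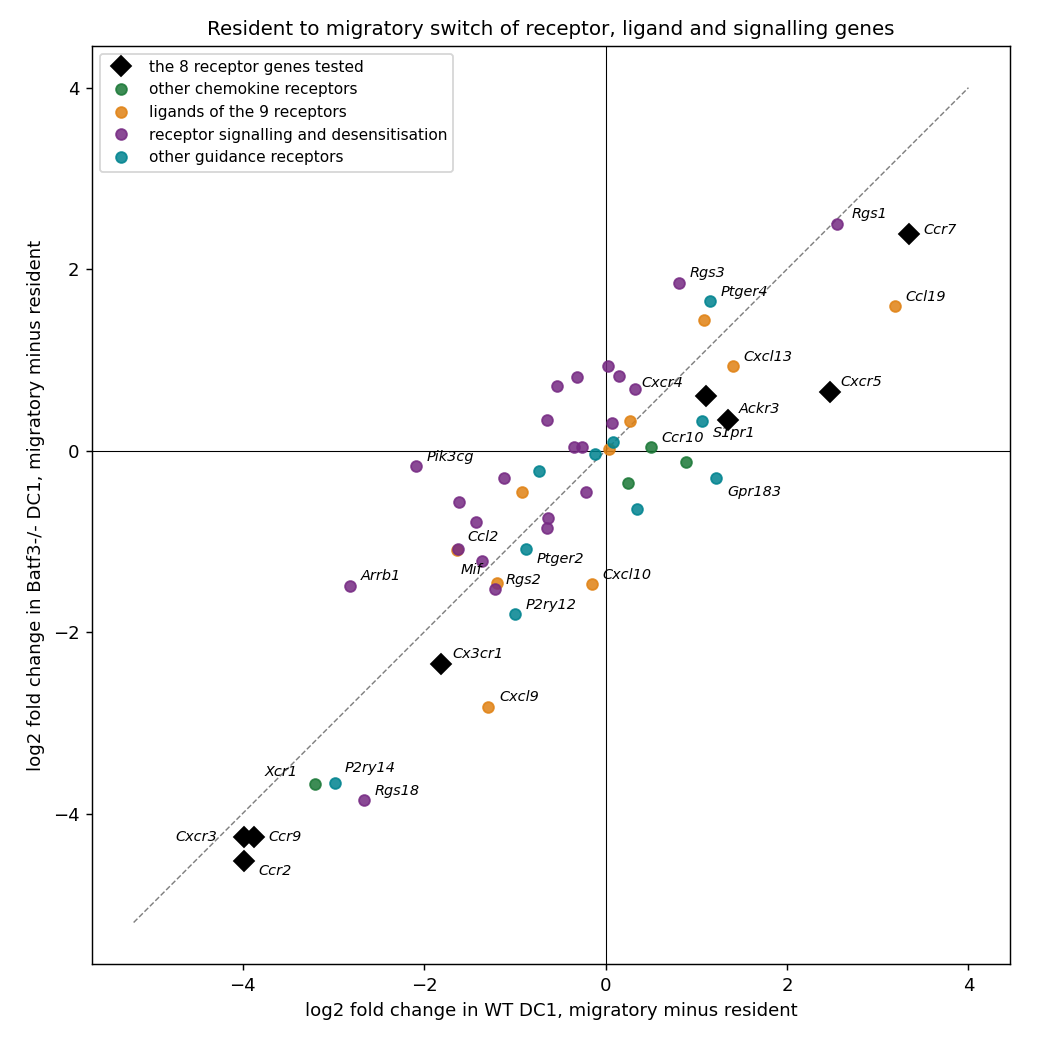
Log2 fold change of migratory against resident DC1 in WT (horizontal axis) and Batf3-/- (vertical axis) for the 8 receptor genes tested (black diamonds) and for genes of 4 lists (coloured points), some of them labelled. The dashed line marks equal change. Ccr2, Ccr9, Cxcr3, Xcr1, Rgs18 and P2ry14 form the far lower left, each with a fall of over 2 log2 units in both genotypes, and Ccr7 and Rgs1 lie at the upper right.

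Of 4 other chemokine receptors tested, Xcr1 fell in both genotypes and Ccr10 rose in WT DC1 (0.50 ± 0.17, adjusted p = 0.0327). The Ccr10 call was lost in 5 of 21 alternatives, and with the SD of each array as a term the value was -0.43. Xcr1, the receptor for XCL1 that marks DC1 and a neighbour of Ccr9 on chromosome 9, fell by 3.67 ± 0.21 in Batf3-/- and by 3.20 ± 0.24 in WT DC1, much like Ccr9. With the loss of Batf3, Xcr1 fell by 1.85 ± 0.24 in migratory and by 1.38 ± 0.21 in resident DC1, where the Ccr9 intervals were -0.38 to 0.48 and 0.05 to 0.82. Cxcr6, the chemokine receptor gene between Ccr9 and Xcr1 in that cluster, did not pass in either switch (-0.36 ± 0.28 in Batf3-/- and 0.25 ± 0.31 in WT DC1). Ccr1, Ccr1l1 and Ccr3 were below the filter level on all SDLN arrays.

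Downstream of the receptors, 23 genes of G protein signalling and desensitisation were tested. In the switch 7 rose and 8 fell in Batf3-/- DC1, and 2 rose and 14 fell in WT DC1, beside 36.6% and 49.2% of all genes. Rgs1, which encodes a brake on G protein signals, rose by 2.5 ± 0.25 in Batf3-/- and by 2.55 ± 0.28 in WT DC1, while Rgs18 of the same family fell by 3.85 ± 0.21 and 2.66 ± 0.23. Arrb1, which encodes a beta-arrestin, fell by 2.82 ± 0.17 and Pik3cg, a kinase gene of chemokine signalling, by 2.09 ± 0.21 in WT DC1. In migratory DC1, 9 of the 23 rose and 2 fell with the loss of Batf3 (9.41% of all genes passed), among them Grk3 (1.75 ± 0.17), a receptor kinase gene, and Pik3cg (1.70 ± 0.21). In resident DC1 1 fell, Arrb1, by 0.77 ± 0.15 (1.84% of all genes passed), a call lost in 5 of 21 alternatives. Among 10 other guidance receptors, P2ry14, a receptor gene for UDP-sugars, fell by 3.66 ± 0.35 in Batf3-/- and by 2.98 ± 0.39 in WT DC1 and Ptger4, a prostaglandin E2 receptor gene, rose (1.65 ± 0.26 and 1.15 ± 0.29). The WT value of P2ry14 was -0.31 (adjusted p = 0.758) with the SD of each array as a term. In all, 1 rose and 3 fell in Batf3-/- and 3 rose and 3 fell in WT DC1, beside 36.6% and 49.2% of all genes. With the loss of Batf3, Ptafr and Ptger4 rose and Gpr183, an oxysterol receptor gene, fell by 0.92 ± 0.23 in migratory DC1, and none passed in resident DC1. The Ptafr, Ptger4 and Gpr183 calls were lost in 6, 7 and 6 of 21 alternatives. In spleen no gene of these lists passed.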

How the data were processed

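The DC1 arrays of 11 SDLN and 8 spleen samples were used as 2 separate value tables. Their values were summarised by RMA (robust multi-array average), per the submitters' processing notes. The deposited SDLN values are on the log2 scale, and the deposited spleen values are linear intensities, of which the log2 was taken here. No source used here names the genome build behind the probe sets. Probe sets annotated to 1 symbol were kept, with symbols updated through Entrez IDs to RefSeq, and the brightest per gene was used. Genes with at least 2 arrays at or above the table median entered the test, 11931 in SDLN and 12875 in spleen.

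Each table was fitted with limma 3.58.1 (R 4.3.3; lmFit and eBayes with a trend), with the group means and, in spleen, a term for the sort gate. P-values were adjusted over all genes tested by Benjamini-Hochberg, with calls at an adjusted p under 0.05. Errors in the fits are moderated SEs, and intervals are 95%. The fits were tested on simulated data with independent noise of the same SD on all arrays of a gene. That setting holds neither the narrower spread of the migratory WT arrays nor correlated arrays, so it does not bear on either. Levels were compared within a gene and a table only, and the small number of arrays limits their precision. The members and lists were chosen with earlier results of these data known. All members are named, and of the other lists at most 4 genes called per list and comparison, by size of change; list genes named beyond these (Cxcr6 and the receptors below the filter, Cxcl13 in Batf3-/- DC1, and marker genes) were chosen after their values were seen.

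Replicate numbers share a title code in SDLN. Deviations from the group means of same-numbered migratory and resident Batf3-/- arrays correlated at 0.416, 0.21 and 0.479. Differently numbered arrays of these groups correlated at -0.451 to 0.218. The value for replicate 2 lay within that range, so that a pairing by number was seen only in part. In the other pairs of groups the same-numbered values were lower or of mixed sign, and no pairing was read from them. They were 0.147 and 0.097 between migratory and resident WT arrays, and -0.031, 0.214 and -0.02 between the resident groups. Between the migratory groups they were -0.157 and 0.245, and between the Irf8VENUS+ spleen groups -0.066, 0.267 and 0.349. Alternatives were other filters, median centring, array weights, the SD of each array as a term, fits of the compared groups alone, the replicate block, the mean of probe sets and leaving out each array.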

Additional observations from a re-analysis of the deposited data

Results flagged for a closer look

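No group held 4 or more arrays, so no array was tested for standing apart from its group in this way. Of 55 tests of whether the Batf3 effect differed between migratory and resident DC1 among the receptors and the path lists, 5 genes passed over all genes tested by limma, and none was a member. The effect in migratory DC1 minus that in resident DC1 was 1.92 ± 0.28 for Pik3cg on the log2 scale (adjusted p = 0.00983), with effects of 1.70 in migratory and -0.23 in resident DC1. For Cxcl9 it was -1.53 ± 0.27 (adjusted p = 0.0247), with effects of -1.42 and 0.11. For Gpr183 it was -1.52 ± 0.31 (adjusted p = 0.0435), with effects of -0.92 and 0.60. For Arrb1 it was 1.33 ± 0.22 (adjusted p = 0.0212), with effects of 0.56 and -0.77. For Grk3 it was 1.26 ± 0.23 (adjusted p = 0.0315), with effects of 1.75 and 0.50. Of 20 alternatives each, the call was lost in 1 for Pik3cg (1.25 with the SD of each array as a term, adjusted p = 0.121), 7 for Cxcl9, 10 for Gpr183, 8 for Arrb1 and 10 for Grk3.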

How the results depend on the processing

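The switch calls of Ccr2, Ccr7, Ccr9 and Cxcr3 passed in both genotypes in all alternatives run, as did that of Cx3cr1 in Batf3-/- DC1. Of 18 member results called, 11 kept their call in every alternative and 7 lost it in some; of 30 not called, 13 stayed so in direction and call. Of 47 calls of other named genes, 26 were lost in some alternative. The count of members called, 2 in migratory DC1, became 0 with a filter of 3 arrays at the 60th percentile (in which Cxcr5 and Ackr3 have no value) and in a fit of the compared groups alone, 1 with the SD of each array as a term, 3 with the replicate block (Cxcr4 0.64, adjusted p = 0.0163) and 0 to 4 leaving out 1 array. In resident DC1 2 became 4 with array weights and 0 to 3 leaving out 1 array. For the difference of the effects 0 became 2 with array weights, 1 with the SD term and 0 to 2 leaving out 1 array. In spleen 0 became 1 with array weights or the SD term and 0 to 1 leaving out 1 array. In the Batf3-/- switch leaving out 1 array gave 5 to 7 for 6. The replicate block changed no other call of a member in these counts, with 6, 8, 2 and 0 members in the Batf3-/- switch, the WT switch, resident DC1 and the difference of effects, and 0 in spleen, where it took the place of the gate.

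Signs turned as follows. With the SD of each array as a term the migratory Batf3 difference was 0.29 for Ccr2, -0.21 for Ccr7, -0.19 for Ccr9 and -0.19 for Cxcr4, the difference of effects was 0.16 for Ccr2, and the WT switch of Ccr10 was -0.43. With median centring Cxcr3 was 0.01 in migratory DC1. In migratory DC1 Ccr9 was -0.02 without Batf3-/- replicate 1 and -0.16 without WT replicate 2, and Cxcr3 was 0.10 without Batf3-/- replicate 2 and 0.48 without WT replicate 2, which made its difference of effects 0.25. Ackr3 in resident DC1 was -0.02 without WT replicate 3. Leaving out 1 array gave -0.16 to 0.26 for Ccr9 and -0.58 to 0.48 for Cxcr3 in migratory DC1, -0.02 to 0.17 for Ackr3 in resident DC1, and -0.81 to 0.25 for the difference of effects of Cxcr3. In spleen it gave -0.25 to 0.28 for Cxcr5 and -0.12 to 0.15 for Ackr3. In spleen, the arrays sorted on CD24 and XCR1 gave -0.25 for Cxcr5, -0.04 for Cx3cr1 and -0.12 for Ackr3, as did leaving out replicate 3 of either Irf8VENUS+ group. Cxcr5 was -0.06 without WT Irf8VENUS+ replicate 2, and Cx3cr1 was -0.01 with array weights. The cause was not tested.

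The count of all genes called moved by over 1.5 times as follows. It was 5870 in the WT switch (8873 with no filter, 1263 with the SD term). It was 1123 in migratory DC1 (2104 with no filter, 2294 with weights, 37 with the SD term, 7 with the compared groups alone, 2464 with the replicate block, 109 to 3570 leaving out 1 array). It was 220 in resident DC1 (981, 429 and 342 with weights, the SD term and the groups alone, 95 to 341 leaving out 1 array). It was 148 for the difference of effects (297 with no filter, 73 with median centring, 1110 with weights, 30 with the SD term, 543 with the block, 17 to 1713 leaving out 1 array), and 95 in spleen (262 with weights, 155 with the SD term, 46 with the groups alone, 25 with the CD24 and XCR1 arrays, 24 to 149 leaving out 1 array). Values near the filter level (Ccr6, Cxcr5, Ackr3) have little signal over background.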
